A study of Homo sapiens with 3 samples.

Results

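The large-subunit ribosomal proteins are the protein components of the cytosolic 60S subunit, and they were examined here through the abundance of CRISPR guides directed at their genes. The members were the guides whose target, as named in the deposited tables, is one of 44 listed 60S proteins. The tables held 128 guides for 43 of these genes, out of 62916 guides for 20472 named targets. The named targets include microRNAs, so the shares of all genes given below cover these as well. RPL41 had 2 guides and the other 42 genes had 3 each. RPL17 was not analysed here. All 128 guides passed the filter of at least 10 normalized reads at day 0, so no member was dropped for low counts.

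The screen was run in NUGC3, a human cell line established from gastric cancer. The cells carried a pooled GeCKO knockout library, whose guide RNAs, typically 1 per cell, lead the nuclease Cas9 to the gene to be cut. There were 3 libraries of genomic DNA, and each condition was 1 library: cells held for 14 days in 10 nM RTX, cells held for 14 days in the solvent DMSO, and cells at day 0. All 3 came from the same line and carried the same library, and every cell pool was a mixture of many knockouts and no single clone. The labels do not spell out RTX, although the series title concerns antifolate sensitivity. The protocol text speaks of 14 days in DMSO for the day 0 group, which its title contradicts, so the groups were taken from the sample titles. Guide abundance carries no expression values, so the identity of the line could not be checked against marker genes.

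Ribosomes are built from a small 40S and a large 60S subunit. The 60S subunit holds the site where peptide bonds form, the tunnel through which the new chain leaves and a flexible stalk that recruits elongation factors. Most of its proteins are needed for the assembly of the subunit itself, so cells that lose one usually make fewer ribosomes and divide more slowly or die. The guide against such a gene then becomes rarer in the pool. Ribosomal proteins are highly expressed in dividing cells, and their messenger RNAs typically begin with a cytosine followed by a run of pyrimidines, the 5′ terminal oligopyrimidine (TOP) element, which links their translation to growth signals.

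The TOP element is shown first because it is a feature the genes share that did not enter their selection. RefSeq promoter windows of build GRCh38.p14, each from 250 bases before to 50 bases after an annotated start, were found for 37 of the 44 listed genes. A C followed by at least 4 further C or T bases, read on the transcribed strand only and beginning at the first transcribed base, was present for 27 of these 37 genes (73.0%). The same run was present for 5.14% of all 27305 genes in that table. A gene counted when any of its annotated starts had the run. Counted by start, the run stood at 55.1% of the 49 member starts and at 4.07% of all 35116 starts. The 5 windows below run from 15 bases before the start to the first 15 transcribed bases, with the run at the start in capitals (at most the part inside the window). Only annotated starts with the run could be shown, so the 5 windows illustrate its form and not how common it is. RPL11, RPL24 and RPL35A were chosen as genes whose median over guides was at least 2-fold lower in DMSO than at day 0. RPL41 and RPL27A were chosen as genes whose median was above day 0, although single guides of RPL35A and RPL27A went the other way.
RPL11: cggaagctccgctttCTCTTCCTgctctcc
RPL24: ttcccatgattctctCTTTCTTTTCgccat
RPL35A: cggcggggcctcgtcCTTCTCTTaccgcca
RPL41: cggaacttcgcctttCTCTCggccttagcg
RPL27A: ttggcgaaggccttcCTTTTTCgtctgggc

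These windows lie at chr1:23691791-23691820 on the plus strand for RPL11, at chr3:101686704-101686733 on the minus strand for RPL24, and at chr3:197950175-197950204 on the plus strand for RPL35A. RPL41 lies at chr12:56116618-56116647 and RPL27A at chr11:8682777-8682806, both on the plus strand. The run was present for 10 of 14 matched genes whose median over guides was at least 2-fold lower in DMSO than at day 0 and for 17 of the 22 other matched genes with guides, that is for 71.4% and 77.3%. Counted by annotated start, it was present at 43.5% of 23 starts of the lower genes and at 68.0% of 25 starts of the others, so the comparison depends on the unit. The difference was not tested. The match is a description of the annotated start and was not measured in these cells.

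Depth was similar in the libraries, with 17344507 reads in RTX, 18805737 in DMSO and 16547572 at day 0. The 128 guides took 25903 reads in RTX, 21558 in DMSO and 27748 at day 0. That is 0.149% of the RTX library (exact 95% binomial interval 0.148% to 0.151%), 0.115% of the DMSO library (0.113% to 0.116%) and 0.168% of the day 0 library (0.166% to 0.170%), while the guides make up 0.203% of all guides. The intervals cover counting error only, because amplified reads without molecular identifiers are not independent cells. The median member guide had 161 reads in RTX, 112.5 in DMSO and 185 at day 0, against 232, 251 and 230 for all guides in the same order. The median of the 1000 non-targeting guides was 241 reads in RTX, 279.5 in DMSO and 212.5 at day 0. The 60S guides were thus below both sets at day 0 already, and no earlier library was analysed here.

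Each guide is described by a log2 ratio of normalized reads after adding 5 to both values, so that differences of rare guides come out smaller than they are. The score of a gene is the median over its guides. A gene counts as past the limit when its score is at or beyond 1 or -1, a 2-fold difference. For a gene with 3 guides this means that at least 2 of them differed by 2-fold in that direction. The limit is a rule of size and no test, because each condition was a single library and nothing here measures the spread between replicate cultures. Guides against 1 gene share their target and do not replace replicates.

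In DMSO at day 14, against day 0, guides against 60S genes were widely rarer. The score was at least 2-fold lower for 17 of 43 genes, where 3.42% of all 20150 scored genes were, and at least 2-fold higher for 0 of 43, where 0.109% of all genes were. The median score of the 43 genes was -0.85, with quartiles at -1.19 and -0.40, while the median of all scored genes was -0.0009. Scores ran from -2.76 for RPL11 to 0.48 for RPL41. In 40 of 43 genes the score was below 0 (50.1% of all genes), and RPL27A, RPL10A and RPL41 were the exceptions. At the level of single guides, 57 of 128 were at least 2-fold lower in DMSO, against 7.52% of all guides and 2.02% of the non-targeting guides. With ratios centred on the non-targeting guides, 27 genes were at least 2-fold lower, and with a pseudocount of 20 in place of 5, 13 were. The 3.42% belongs to the main setting, and the share of all genes under these other settings was not analysed here. None of the 128 guides was at least 2-fold higher, against 2.32% of all guides and 3.53% of the non-targeting guides.

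In RTX at day 14, against day 0, the same guides were closer to their starting abundance. Scores were at least 2-fold lower for 4 of 43 genes, where 1.39% of all genes were, namely RPL11, RPL21, RPL9 and RPL8, and at least 2-fold higher for 0 of 43, where 0.620% of all genes were. The median score was -0.19, with a range from -1.73 for RPL11 to 0.50 for RPLP0, and 27 of 43 genes were below 0 (50.4% of all genes). The median was -0.30 when centred on the non-targeting guides, and with the mean over guides in place of the median, RPL9 and RPL8 were inside the limit, which left 2 genes past it. For the mean, the share of all genes was not analysed here. Of the 128 guides, 17 were at least 2-fold lower in RTX than at day 0, against 5.32% of all guides and 2.72% of the non-targeting guides, and 1 was at least 2-fold higher, against 3.18% and 3.03%. Across the whole table, 280 of 20150 genes were at least 2-fold lower in RTX and 689 in DMSO, each against day 0. The number of cell divisions in each condition was not analysed here.

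Compared directly at day 14, guides against 60S genes were more abundant in RTX than in DMSO. The score was at least 2-fold higher for 11 of 43 genes, where 2.75% of all genes were, and at least 2-fold lower for 0 of 43, where 0.844% of all genes were. The 11 genes were RPL3, RPL5, RPL11, RPL13A, RPL23, RPL24, RPL28, RPL32, RPL35A, RPLP0 and RPLP2. Under the alternative settings the number ran from 9 to 14, and the share of all genes was not analysed for them. The median score was 0.55, with a range from -0.54 for RPL41 to 2.0 for RPL32, and 40 of 43 genes were above 0 (49.7% of all genes). Single guides were at least 2-fold higher in 41 of 128 cases, against 7.89% of all guides and 4.24% of the non-targeting guides, and at least 2-fold lower in 2 cases, against 5.43% and 6.05%. This comparison and that of DMSO with day 0 share the DMSO library, so a guide with few reads there by chance appears in both. The comparisons of RTX and of DMSO with day 0 share the day 0 library. A guide with many reads at day 0 by chance is lower in both of them.

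The 5S particle is formed by RPL5 and RPL11, which carry the 5S ribosomal RNA into the growing subunit. The 3 guides against RPL11 had 35, 42 and 40 reads in RTX, 6, 12 and 73 in DMSO and 132, 100 and 144 at day 0. All 3 were thus below their day 0 level under both treatments, and RPL11 was the member with the lowest score both in DMSO over day 0 (-2.76) and in RTX over day 0 (-1.73). Its score in RTX over DMSO was 1.58, with 2 guides higher in RTX and the third, at -0.67, lower.

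RPL5 scored higher than its partner RPL11 against day 0 both in RTX and in DMSO. Its guides had 47, 218 and 217 reads in RTX, 0, 106 and 131 in DMSO and 43, 207 and 185 at day 0. In RTX the 3 guides were therefore at their day 0 level, with log2 ratios between 0.07 and 0.22, whereas in DMSO all 3 were below it, with ratios between -3.34 and -0.64. The guide with 0 reads in DMSO was at least 17.3-fold higher in RTX than in DMSO and at least 16.0-fold lower in DMSO than at day 0, taking 3 reads per library as the floor. The RPL5 scores were 1.14 in RTX over DMSO, 0.11 in RTX over day 0 and -1.09 in DMSO over day 0.

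RPL3, which reaches towards the peptidyl transferase centre and joins the earliest precursors of the subunit, had guides that behaved alike. They had 102, 228 and 75 reads in RTX, 50, 72 and 35 in DMSO and 199, 229 and 129 at day 0. Every guide was lowest in DMSO, with ratios of DMSO over day 0 between -2.04 and -1.76. In RTX over day 0 the RPL3 guides ranged from -0.94 to -0.01, and in RTX over DMSO from 1.09 to 1.73.

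RPL23, on the face of the subunit that meets the 40S subunit and where the anti-association factor eIF6 docks, had the narrowest range of guides among the members in DMSO over day 0. Its 3 guides had 196, 110 and 200 reads in RTX, 95, 41 and 80 in DMSO and 271, 113 and 230 at day 0. The ratios of DMSO over day 0 lay between -1.62 and -1.51, those of RTX over day 0 between -0.46 and -0.04 and those of RTX over DMSO between 1.14 and 1.45. RPL3, RPL13A and RPL23 were the 3 members with all 3 guides at least 2-fold higher in RTX than in DMSO, a pattern found in 0.409% of the 18094 genes with 3 measured guides. RPL10, which joins late in the cytoplasm and is needed for the subunit to become active, differed from RPL3. The reads of its guides were 301, 44 and 254 in RTX, 322, 78 and 245 in DMSO and 217, 119 and 328 at day 0, so 1 guide was above its day 0 level in both treatments and the other two below. The RPL10 score was 0.04 in RTX over DMSO, -0.37 in RTX over day 0 and -0.57 in DMSO over day 0.

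The stalk is anchored by RPLP0 and RPL12 and carries dimers of RPLP1 and RPLP2, which recruit elongation factors. RPLP0 guides had 434, 235 and 143 reads in RTX, 165, 102 and 114 in DMSO and 200, 164 and 212 at day 0. All 3 were more abundant in RTX than in DMSO, and 1 of them exceeded its day 0 level by a log2 ratio of 1.09, the only member guide at least 2-fold above day 0 in RTX. RPL12 guides had 116, 9 and 161 reads in RTX, 25, 7 and 174 in DMSO and 138, 69 and 164 at day 0. The first RPL12 guide was low in DMSO only, the second was low in both treatments and the third stayed near its day 0 level, so the gene's scores of -2.40 in DMSO over day 0 and of -0.25 in RTX over day 0 rest on guides that disagree.

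RPLP1 guides had 125, 121 and 126 reads in RTX, 110, 56 and 188 in DMSO and 105, 111 and 187 at day 0, with 1 of 3 lower by 2-fold in DMSO than at day 0. RPLP2 guides had 30, 190 and 244 reads in RTX, 6, 85 and 407 in DMSO and 107, 112 and 316 at day 0. The first RPLP2 guide was scarce in both treatments, with ratios of -1.69 in RTX and -3.47 in DMSO, while the other two stayed within a log2 ratio of 0.73 of day 0. The 4 stalk genes had scores of RTX over DMSO of 1.30 for RPLP0, 0.31 for RPL12, 0.31 for RPLP1 and 1.25 for RPLP2.

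Among the proteins of the exit tunnel and its rim, RPL4 lines the tunnel, RPL39 sits inside it and RPL19, RPL23A, RPL26, RPL31, RPL35 and RPL38 lie around its mouth. Of these 8 genes, 1 (RPL38, -1.16) was past the limit in DMSO over day 0, where 3.42% of all genes were lower. In RTX over day 0 and in RTX over DMSO 0 were past it, where 1.39% of all genes were lower and 2.75% higher, respectively. So few genes cannot be told from the background by these counts, and the difference from the other members was not tested. The median of their scores was 0.39 in RTX over DMSO, -0.10 in RTX over day 0 and -0.61 in DMSO over day 0. RPL39 guides had 150, 298 and 72 reads in RTX, 84, 255 and 37 in DMSO and 139, 219 and 103 at day 0, so all 3 were more abundant in RTX than in DMSO, with ratios from 0.36 to 1.00. The tunnel genes also held examples of 1 guide that departed from the other two. The lowest guide against RPL4 stood at -2.04 in DMSO over day 0 while its other guides stood at -0.26 and -0.02, and the lowest against RPL26 stood at -2.59 while the others stood at -0.85 and -0.16.

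Proteins without a bacterial counterpart made up 24 of the scored genes, and 17 were proteins shared with bacteria. Together they do not cover all 43 scored genes. In DMSO over day 0 the median score was -1.0 for the 24 genes without a bacterial counterpart, with 12 past the limit. It was -0.85 for the 17 shared proteins, with 5 past the limit, where 3.42% of all genes were. In RTX over DMSO the medians were 0.57 over the 24 genes and 0.52 over the 17. The difference between these sets was not tested. The highest score in RTX over DMSO belonged to RPL32, whose guides had 67, 122 and 199 reads in RTX, 12, 115 and 51 in DMSO and 106, 134 and 145 at day 0. The second RPL32 guide was nearly level in all libraries, and the others were lowest in DMSO.

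RPL24, which joins late at the interface of the subunits, had guides with 36, 226 and 127 reads in RTX, 0, 68 and 141 in DMSO and 30, 170 and 151 at day 0. The first 2 RPL24 guides were at or above day 0 in RTX and depleted in DMSO, and the third was nearly level in all libraries. With the floor of 3 reads, the guide at 0 was at least 13.2-fold higher in RTX than in DMSO. A guide against RPL35A, named after its values were seen because it also had 0 reads in DMSO, had 44 reads in RTX and 60 at day 0, at least 16.2-fold higher in RTX than in DMSO. These were the 3 member guides without a read in DMSO, and 0 member guides lacked reads in RTX or at day 0. Of all 62916 guides, 236 had no read in DMSO, 185 had none in RTX and 24 had none at day 0. A count of 0 among 128 guides in RTX or at day 0 is near that background.

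RPL34 guides had 46, 300 and 231 reads in RTX, 55, 96 and 158 in DMSO and 155, 247 and 227 at day 0. Its first guide was depleted alike in both treatments, at -1.66 in RTX and -1.57 in DMSO, and the other two were lower in DMSO only. RPL6 guides had 470, 50 and 2 reads in RTX, 241, 27 and 8 in DMSO and 526, 43 and 43 at day 0. The third RPL6 guide was the lowest member guide in RTX over day 0, at -2.79, and rested on 2 reads, while the other two RPL6 guides were within 0.19 of day 0.

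RPL15, one of the ribosomal proteins mutated in Diamond-Blackfan anaemia, an inherited failure of red cell production, had guides with 281, 244 and 43 reads in RTX, 202, 160 and 45 in DMSO and 343, 339 and 184 at day 0. All 3 were below day 0 in both treatments, and the third was equally depleted, at -1.98 in RTX and -2.07 in DMSO. RPL14 guides had 99, 137 and 12 reads in RTX, 22, 132 and 25 in DMSO and 112, 256 and 55 at day 0. All 3 RPL14 guides were at least 2-fold lower in DMSO than at day 0, and 1 of them was so in RTX. Over the 9 Diamond-Blackfan genes among the members (RPL5, RPL11, RPL15, RPL18, RPL26, RPL27, RPL31, RPL35 and RPL35A) the median score was 0.60 in RTX over DMSO, 0.01 in RTX over day 0 and -0.92 in DMSO over day 0. The medians of the other 34 genes were 0.50, -0.20 and -0.85 in the same comparisons.

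Besides RPL11, the genes past the limit in RTX over day 0 were RPL21, RPL9 and RPL8. RPL21 guides had 18, 80 and 3 reads in RTX, 32, 84 and 4 in DMSO and 34, 213 and 37 at day 0. The RPL21 score was -0.11 in RTX over DMSO, -1.37 in RTX over day 0 and -1.45 in DMSO over day 0. The gene was thus lower alike in both treatments, against the same day 0 library, with 2 guides that began at only 34 and 37 reads. RPL9 scored 0.13 in RTX over DMSO, -1.37 in RTX over day 0 and -0.98 in DMSO over day 0, and RPL8, which contacts the peptidyl transferase centre, scored 0.74, -1.09 and -0.97. The RPL8 guides ranged from -1.51 to 0.94 in RTX over DMSO, so they did not share a direction. Nor did the RPL9 guides in RTX over day 0, which ranged from -1.45 to 0.44. The highest of them had 773 reads in RTX and 565 at day 0.

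Several members showed little or no loss by score, and those described below are not all of them. In DMSO over day 0, RPL10A scored 0.28, RPL27A 0.26, RPLP1 -0.15 and RPL31 -0.15, and each scored above 0 in RTX over day 0. RPL10A and RPLP1 still had 1 guide each that was at least 2-fold lower in DMSO. RPL41, the shortest ribosomal protein and dispensable in Saccharomyces cerevisiae, had 2 guides with 515 and 59 reads in RTX, 658 and 123 in DMSO and 520 and 62 at day 0. Both were above day 0 in DMSO and at day 0 in RTX, and the score of -0.54 in RTX over DMSO was the lowest of the members. RPL22, an RNA-binding protein of the subunit surface that has a close paralogue, RPL22L1, and is dispensable in yeast, had guides with 321, 291 and 392 reads in RTX, 232, 478 and 248 in DMSO and 274, 243 and 273 at day 0. All 3 RPL22 guides were above day 0 in RTX, by log2 ratios of 0.22 to 0.51, and in DMSO 1 was above it and the other two were at -0.39 and -0.29. RPL29, another protein dispensable in yeast, had scores of 0.04 in RTX over DMSO, 0.26 in RTX over day 0 and -0.47 in DMSO over day 0.

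Genes dispensable in yeast were not uniformly spared. RPL12, RPL22, RPL24, RPL29, RPL38, RPL39 and RPL41 were listed as genes whose yeast counterparts can be deleted. Their median score was -0.85 in DMSO over day 0, with 3 of 7 past the limit, where 3.42% of all genes were. Over the other 36 members the median was -0.89, with 14 past the limit. Whether yeast counterparts of some of those 36 can also be deleted was not analysed here, so these sets may not divide the members cleanly. In RTX over DMSO the medians were 0.31 for the 7 genes and 0.56 for the 36. No test of the difference was made.

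Disagreement between guides of 1 gene was common. In DMSO over day 0, all 3 guides were at least 2-fold lower for 5 of 42 genes with 3 guides (RPL3, RPL11, RPL13, RPL14 and RPL23), exactly 2 guides for 12, exactly 1 for 18 and none for 7. Among all 18094 genes with 3 measured guides, all 3 were lower in 0.591%, exactly 2 in 2.80%, exactly 1 in 15.03% and none in 81.6%. For RPL30 and RPL10A a single guide carried the loss. The lowest RPL30 guide stood at -3.60 and the others at -0.20 and 0.20, and the lowest RPL10A guide stood at -2.39 and the others at 0.28 and 0.96. How well each guide cuts was not measured in these libraries.

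Starting abundance moved with the ratios. The 25 member guides with fewer than 100 reads at day 0 had a median ratio of 0.74 in RTX over DMSO and -1.03 in DMSO over day 0. The 64 guides with at least 100 but fewer than 250 reads had medians of 0.54 and -0.99, and the 39 guides with 250 or more had 0.50 and -0.57. For all targeting guides the medians in these 3 classes lay between -0.01 and 0.02 in both comparisons. The part of starting abundance in the member values was not tested.

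The genes lie on 17 chromosomes, with 6 members each on chromosomes 3 and 17 and 0 on chromosome 21. The members on chromosome 3 (RPL14, RPL15, RPL24, RPL29, RPL32 and RPL35A) had a median score of 1.058 in RTX over DMSO and -1.18 in DMSO over day 0, while all 955 scored genes of that chromosome had medians of 0.0007 and -0.01. On chromosome 17 the 6 members had medians of 0.39 and -0.92, and the 1027 scored genes had 0.05 and -0.04. Ribosomal protein genes have many processed pseudogenes, and whether a guide also matches such copies was not analysed here, so the loss of a guide may include cuts at other sites.

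The tables also held paralogues of the members. RPL3L, known from heart and skeletal muscle, RPL10L, known from testis, and RPL7L1, RPL22L1, RPL26L1, RPL36AL and RPL39L together had a median score of -0.04 in RTX over DMSO, -0.05 in RTX over day 0 and -0.15 in DMSO over day 0. None of the 7 passed the limit in any of the 3 comparisons, where the background was 2.75% of all genes higher in RTX over DMSO, 1.39% lower in RTX over day 0 and 3.42% lower in DMSO over day 0, so this count is near the background. The lowest in DMSO over day 0 was RPL7L1, at -0.70, with 1 guide at -2.83.

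Among the 4 sets of ribosomal proteins and assembly factors compared here, the 60S proteins had the lowest median in DMSO over day 0. Other parts of the translation machinery were not analysed here. It was -0.85 for the 43 members, -0.63 for 44 assembly factors of the 60S subunit, -0.52 for 47 proteins of the large mitochondrial subunit and -0.50 for 30 proteins of the 40S subunit. The numbers past the limit were 17 of 43, 14 of 44, 11 of 47 and 10 of 30, where 3.42% of all genes were at least 2-fold lower. In RTX over DMSO the medians were 0.55, 0.56, 0.30 and 0.76 in the same order, and in RTX over day 0 they were -0.19, -0.03, -0.22 and 0.07. In RTX over day 0 the 60S members were the one set of the 4 with genes at least 2-fold lower, 4 of 43 against 0 in each of the others. Of all genes, 1.39% were, so a count of 0 is near the background. The 60S count was 2 with the mean over guides, a setting not applied to the other sets. Differences between these sets were not tested.

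Single guides were also called by the authors' own statistics and by a count test. In the authors' deposited tables, at an FDR under 0.05, 50 member guides were higher and 1 lower in RTX over DMSO (13.9% and 4.29% of all guides), and 43 were lower and 5 higher in DMSO over day 0 (5.84% and 9.77%). The authors' deposited table that sets RTX against day 0 held 12 lower and 6 higher member guides (4.04% and 11.0%). A count test on the recovered reads (edgeR's exact test with Benjamini-Hochberg adjustment), which compares the 2 libraries and not the conditions, called 6 member guides higher and 0 lower in RTX over DMSO (0.955% and 0.410% of all guides). It called 22 lower and 0 higher in DMSO over day 0 (2.06% and 0.178%), and 3 lower and 0 higher in RTX over day 0 (0.661% and 0.216%). The 6 guides higher in RTX targeted RPL5, RPL18, RPL24, RPL26, RPL30 and RPL35A, 1 guide each.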

How the data were processed

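Genomic DNA of 3 NUGC3 cell pools was amplified and sequenced, per the labels' protocols. The authors deposited 3 guide tables, 1 per pair of libraries, made with MAGeCK 0.5.7; the submitters' processing notes also name hg19. Per the file headers, each table gives every guide a value in either library, a signal that behaves as read counts divided by 1 size factor per library, and the authors' FDR (q-values), which come from single libraries. Whole reads were recovered for at least 99.9984% of the values of a library (tolerance 0.1) and were the same in both tables that hold a library. The matching of reads to guides is not stated in the sources used here.

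Ratios were computed within each table (pseudocount 5, at least 10 normalized reads at day 0), and scores for 20150 genes with at least 2 guides, leaving out 23 date-like names. The non-targeting guides had an SD of the log2 ratio of 0.64 in RTX over DMSO, 0.56 in RTX over day 0 and 0.53 in DMSO over day 0, the drift without a knockout. Members, lists and limits were chosen with earlier results of these data known. Reads of every guide are given for members past the limit with guides of 1 sign (at most 12, by size in DMSO over day 0) and for 9 genes fixed by name (RPL5, RPL11, RPLP0, RPLP1, RPLP2, RPL22, RPL10, RPL39 and RPL41). The count test used edgeR 4.0.16 with 1 dispersion from the non-targeting guides. Scores and count test were also run on simulated pairs of libraries with known folds, which does not measure the spread between replicate cultures. Alternatives were pseudocounts of 1 and 20, no filter or one of 50 reads, centring on non-targeting guides, equal totals, the mean over guides and at least 3 guides. Some other genes are not reported here.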

Additional observations from a re-analysis of the deposited data

How the results depend on the processing

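Non-targeting guides had median ratios of -0.10 in RTX over DMSO, 0.11 in RTX over day 0 and 0.19 in DMSO over day 0. Centred on them, the 60S medians became 0.65, -0.30 and -1.04, and the genes at least 2-fold lower in DMSO over day 0 became 27. That count was 13 with a pseudocount of 20, and 13 of 41 genes with the filter of 50 reads. Shares of all genes were not analysed under the alternative settings, so these counts have no background of their own. Genes at least 2-fold higher in RTX over DMSO numbered 14 when centred, and 9 with a pseudocount of 20, the filter of 50 reads or the mean. With that filter, RPL5 and RPL24 fell inside the limit in both comparisons. With the mean, RPL11, RPL28 and RPLP2 fell inside it in RTX over DMSO, and RPL18 passed it. With equal library totals the median of RTX over day 0 was -0.25. With the mean over guides the medians were 0.51, -0.22 and -0.89, and 2 genes (RPL11 and RPL21) were at least 2-fold lower in RTX over day 0. Pseudocounts of 1 and 20 gave -0.88 and -0.795 in DMSO over day 0, and 20 gave 0.51 in RTX over DMSO. With at least 3 guides the median of DMSO over day 0 was -0.89. No median of the 43 genes changed sign under these settings; single scores near 0 did, the largest of them at 0.29 in size. Of guides, the count test called 6 higher and 0 lower in RTX over DMSO, 0 higher and 3 lower in RTX over day 0, and 22 lower in DMSO over day 0. The authors' FDR gave 50 higher and 1 lower in RTX over DMSO (13.9% and 4.29% of all guides), 6 higher and 12 lower in RTX over day 0 (11.0% and 4.04%), and 5 higher and 43 lower in DMSO over day 0 (9.77% and 5.84%). Apart from the settings' own construction, the cause was not tested. Over all settings, 923 member scores moved by less than their counting interval and 100 by more. The 923 include the settings without a filter and with at least 3 guides. Those could not change a score that they kept, because all 128 member guides had passed the filter. No paired analysis was possible because each condition is 1 library. Depth limits guides with few reads: 3 member guides had 0 reads in DMSO, where 236 of all 62916 guides did.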

Other observations

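Proteins that escort single 60S proteins before assembly had scores within the limit. GRWD1, a chaperone of RPL3, scored 0.62 in RTX over DMSO and -0.06 in DMSO over day 0, with 1 guide at -2.0 in the second comparison. HEATR3, which serves the nuclear import of the 5S particle proteins, scored -0.04 and -0.22, AAMP, the relative of the yeast RPL10 chaperone Sqt1, scored 0.18 and -0.48, and BCCIP, a partner of RPL23, scored -0.53 and 0.12. None of these 4 genes was past the limit in RTX over day 0 either. Of all genes, 2.75% were higher in RTX over DMSO, 1.39% lower in RTX over day 0 and 3.42% lower in DMSO over day 0. The count for these 4 genes is near that background.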
